A study of Mus musculus with 18 samples.

Results

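The genes described here are 10 members of the FGF-ERK pathway and its feedback loop, namely the ligand gene Fgf4, the receptor genes Fgfr1 and Fgfr2, the feedback inhibitor genes Spry2, Spry4, Dusp6, Il17rd and Spred2, and the ETS factor genes Etv4 and Etv5. They were chosen by symbol, not by ranking a measured value, though with earlier results of these data known. Each was found once among the 21859 protein-coding genes and once among the 32253 promoter upstream transcripts (PROMPTs) of the deposited tables. Transcription was measured by TT-seq, in which RNA made during a 5 min pulse of 4-thiouridine is purified and sequenced. The 18 libraries came from E14 murine ES cells, 3 from each of 6 conditions. Each of 3 lines, untagged, SPT16_AID_V5_Clone1 and SPT16_AID_V5_Clone2, received EtOH or 3-indole acetic acid (IAA) for 24 h.

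In the cells of both clones, Supt16 carried an AID degron and V5 epitopes at its C-terminus, through which IAA leads to degradation of SPT16, a subunit of the histone chaperone FACT. All cells, the untagged ones included, had osTIR1 integrated in the genome. All were grown without feeders in 10% serum with LIF, 3 µM of the GSK inhibitor CHIR99021 and 1 µM of a MEK inhibitor that the labels spell PD0325091. The kinase that activates ERK was thus a drug target in every condition, so none shows these genes without the inhibitor. The labels give 500 nM IAA for the treated cells, whereas the study's methods give 500 µM. The clones were targeted separately and the study calls repeats of a line technical replicates, and nothing in the labels ties the libraries of a condition to separate cultures.

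FGF4 is secreted by ES cells and binds FGF receptors on the same and on neighbouring cells. The activated receptors signal through adaptors, RAS, RAF and MEK to the kinase ERK. ERK signalling drives naive ES cells toward differentiation, and its inhibition helps to hold them in the naive state. ERK also raises transcription of its own inhibitors, among them Sprouty and SPRED proteins and dual-specificity phosphatases, so that these genes serve as readouts of the pathway.

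The value used for every gene was the authors' mean of normalized counts over the libraries of their comparison, in which SPT16-depleted and control libraries were averaged together. Whether all 18 libraries, the untagged ones included, entered that mean is not given. Values of single libraries were not used here, so a mean has no SD, a difference between genes has no test, and no change upon IAA treatment was computed. As in any bulk sample, fewer cells transcribing a gene and less RNA per cell cannot be told apart. The summed gene means came to 55.9 M normalized reads. Levels were compared between genes per kb, and means without a length also reflect the length of a gene. Of 382 genes that lie wholly within another protein-coding gene of the same strand, 380 (99.5%) were listed at 0, against 6.05% of the 21435 other genes. Whole gene spans, introns included, therefore appear to have been counted with shared reads left out, and the length used below is the gene span. "Per kb" always refers to the mean normalized count per kb of gene span, unless exons are named, and a percentile is the share of 20140 genes with reads that had a lower value. All 10 ES cell marker genes that were listed had a level above the median gene, from 187 per kb for Utf1 to 5779 per kb for Dppa5a. Of 12 markers of lineages that ES cells can enter and of fibroblasts, 3 were above the median gene, with a range from 1.26 per kb for Pax6 to 50.7 per kb for Sox1, and none was at 0. The study reports lower transcription of pluripotency factor genes and higher expression of differentiation markers after SPT16 depletion. Such cells are averaged with control cells here, so these marker levels do not describe undifferentiated cells alone.

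The promoters of Fgf4, Dusp6, Il17rd and Etv5 are shown for their ratio of promoter upstream transcript to gene per kb of gene span, given below. Among the genes with a sequence, Il17rd and Fgf4 had the highest, Dusp6 a middling and Etv5 the lowest value above 0. By exon length, Dusp6 at 6.13% was above Fgf4 at 2.89%. Each line gives the 250 bases before the RefSeq transcript start on GRCm38.p6, 5′ to 3′ on the strand of the gene. For Fgf4 this is chr7:144861136-144861385 on the plus strand, for Dusp6 chr10:99262981-99263230 on the plus strand, for Il17rd chr14:27038751-27039000 on the plus strand, and for Etv5 chr16:22439571-22439820 on the minus strand. Capitals mark matches, on either strand, to the GC box letters GGGCGG, to CCAAT, to the ETS letters CCGGAA or to TATAAA.
Fgf4: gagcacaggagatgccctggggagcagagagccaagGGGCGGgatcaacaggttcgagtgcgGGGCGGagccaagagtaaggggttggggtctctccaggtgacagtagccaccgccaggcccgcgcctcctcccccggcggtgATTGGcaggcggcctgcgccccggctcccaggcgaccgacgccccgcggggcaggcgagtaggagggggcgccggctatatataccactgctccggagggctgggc
Dusp6: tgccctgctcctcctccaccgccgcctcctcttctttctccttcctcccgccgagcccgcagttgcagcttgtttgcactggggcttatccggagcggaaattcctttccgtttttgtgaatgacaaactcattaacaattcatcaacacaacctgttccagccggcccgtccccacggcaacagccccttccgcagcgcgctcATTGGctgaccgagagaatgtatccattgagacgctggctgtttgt
Il17rd: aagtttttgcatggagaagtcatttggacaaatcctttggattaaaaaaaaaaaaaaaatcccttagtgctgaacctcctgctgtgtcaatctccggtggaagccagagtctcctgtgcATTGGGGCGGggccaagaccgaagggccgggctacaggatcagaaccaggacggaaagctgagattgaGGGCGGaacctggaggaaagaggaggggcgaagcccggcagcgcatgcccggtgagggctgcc
Etv5: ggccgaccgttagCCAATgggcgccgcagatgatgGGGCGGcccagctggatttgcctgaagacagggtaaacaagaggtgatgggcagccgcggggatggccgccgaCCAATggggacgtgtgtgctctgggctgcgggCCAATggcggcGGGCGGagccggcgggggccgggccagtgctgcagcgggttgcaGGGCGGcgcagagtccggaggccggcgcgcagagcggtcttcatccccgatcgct

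Sequences were given for 7 of the 10 genes in the RefSeq promoter table. The Etv5 window held 3 GC box and 3 CCAAT matches and 27 CpG dinucleotides, more CpG than 91.9% of the 32851 promoters in the table. Fgf4 held 2 GC boxes, 1 CCAAT and 21 CpG dinucleotides, and Il17rd held 2 GC boxes and 1 CCAAT, of which a GC box and the CCAAT letters overlap, with 10 CpG dinucleotides. Dusp6 had 1 CCAAT match, no GC box and 16 CpG dinucleotides. Across all promoters, 32.7% held GGGCGG, 33.8% CCAAT, 12.0% CCGGAA and 12.4% TATAAA. None of the windows of the 7 genes, including a second one for Etv5, held CCGGAA or TATAAA, which says only that these letters are not in these 250 bases.

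The 10 genes spread widely in transcription. Spry2, Etv5 and Fgf4 were transcribed most densely, and Etv4, Spry4 and Fgfr2 were below the median gene, which had 21.7 per kb. In all, 7 of the 10 genes were above that median, the median of the 10 was 168 per kb, and their median percentile was 83.0. Among the 66 other pathway genes in the table, 38 were above the median gene and their median was 39.1 per kb. The share differed by role, with 2 of 21 other ligands and 1 of 5 other receptors and coreceptors above the median gene. It was 11 of 11 for adaptor and RAS genes, 8 of 9 for kinases, 8 of 11 for other feedback inhibitors and 8 of 9 for other transcription factors. Leaving out Fgfr2, whose annotated span is discussed below, the highest of the genes, Spry2, had 34.1 times the level of the lowest, Spry4. By RefSeq spans Fgf4 would be the highest, at 111 times the level of Spry4.

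**Figure D1:**
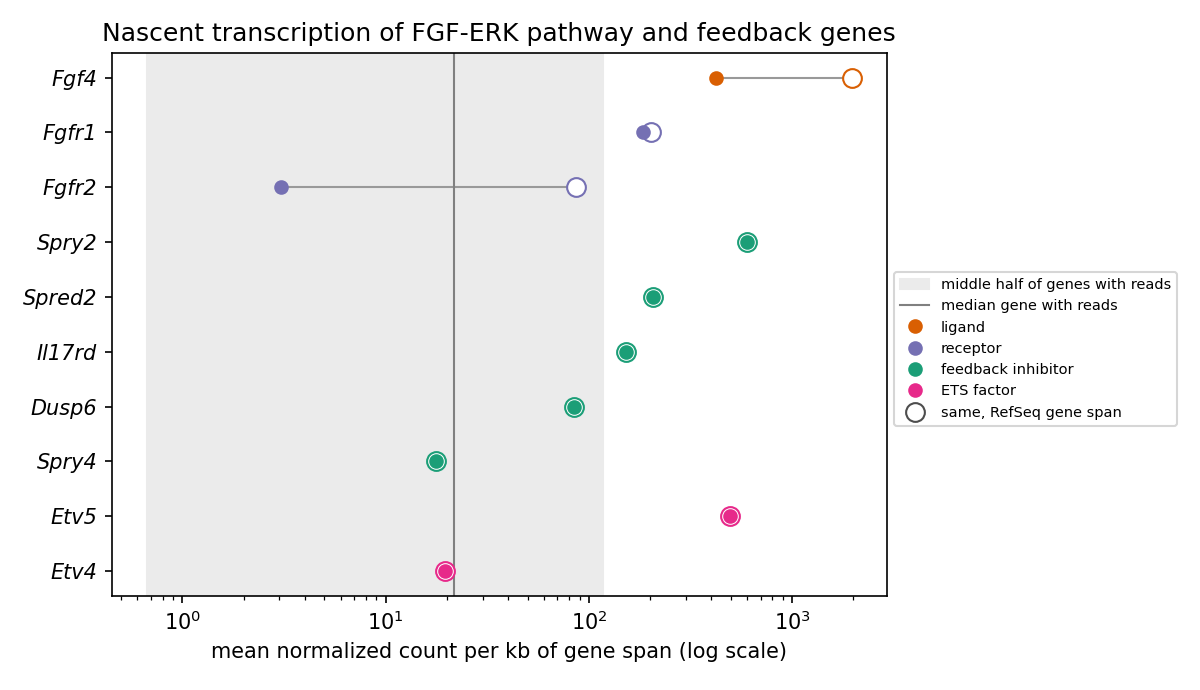
Mean normalized count per kb (log axis) of the 10 genes, coloured by role, with the Gencode gene span as filled points and the RefSeq gene span as open circles. Grey shading is the range between the quartiles and the grey line the median (21.7 per kb) of all genes with reads. Only Fgf4 and Fgfr2 move far between the annotations, Spry2 is highest at 600.1 by the Gencode span, and Etv4 and Spry4 sit just left of the median line.

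Fgf4, the ligand through which ES cells stimulate their own FGF receptors, lies on chromosome 7 of GRCm38 from 144847367 to 144865243 on the plus strand. Its mean normalized count was 7578, which is 424 per kb and at percentile 96.2. This was the highest level of 22 FGF ligand genes and 9.76 times that of the next, Fgf3, at 43.4 per kb. The other 21 ligand genes had a median of 2.85 per kb, down to 0.110 per kb for Fgf14. Fgf5, which is known as a gene of the primed epiblast, had 0.483 per kb. The Gencode span starts 14.0 kb before the RefSeq start, and if all reads came from the RefSeq span of 3.86 kb the Fgf4 level would be 1963 per kb. Fgf4 was also first of the 22 ligand genes per kb of exon, with Fgf10 next.

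Of the receptor genes, Fgfr1 on chromosome 8, from 25513654 to 25575718 on the plus strand, had a mean of 11469 normalized counts. This corresponds to 185 per kb and percentile 85.1. Fgfr4 had 13.3 per kb and Fgfr3 0.358 per kb, so that Fgfr1 was highest of the 4 receptor genes on the scale of gene span and per kb of exon. Among coreceptors and the decoy-like receptor Fgfrl1, levels ran from 0.145 per kb for Kl to 27.6 per kb for Fgfrl1, with Klb at 2.41 per kb.

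For Fgfr2 the level depends on the annotation. Its mean of 9049 normalized counts was close to that of Fgfr1, but Gencode gives it a span of 2.96 Mb on the minus strand of chromosome 7, from 130162451 to 133123350. That span starts 2.86 Mb upstream of the RefSeq start. The 13 genes of the same strand that lie wholly inside this span were all listed at 0, among them Ate1, Nsmce4a, Oat and Chst15, whereas none of the 16 genes of the opposite strand was at 0. Ctbp2, which reaches past the end of the span, had a mean of 27.3. Over the whole span Fgfr2 had 3.06 per kb, over the 2.23 Mb not shared with another gene of its strand 4.06 per kb, and with all reads placed in the RefSeq span of 104 kb it had 86.7 per kb. Reads from the receptor gene itself and from the rest of the long span cannot be told apart in this value. The percentile of Fgfr2 was 35.1 by the Gencode span and 67.5 by RefSeq spans.

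**Figure D2:**
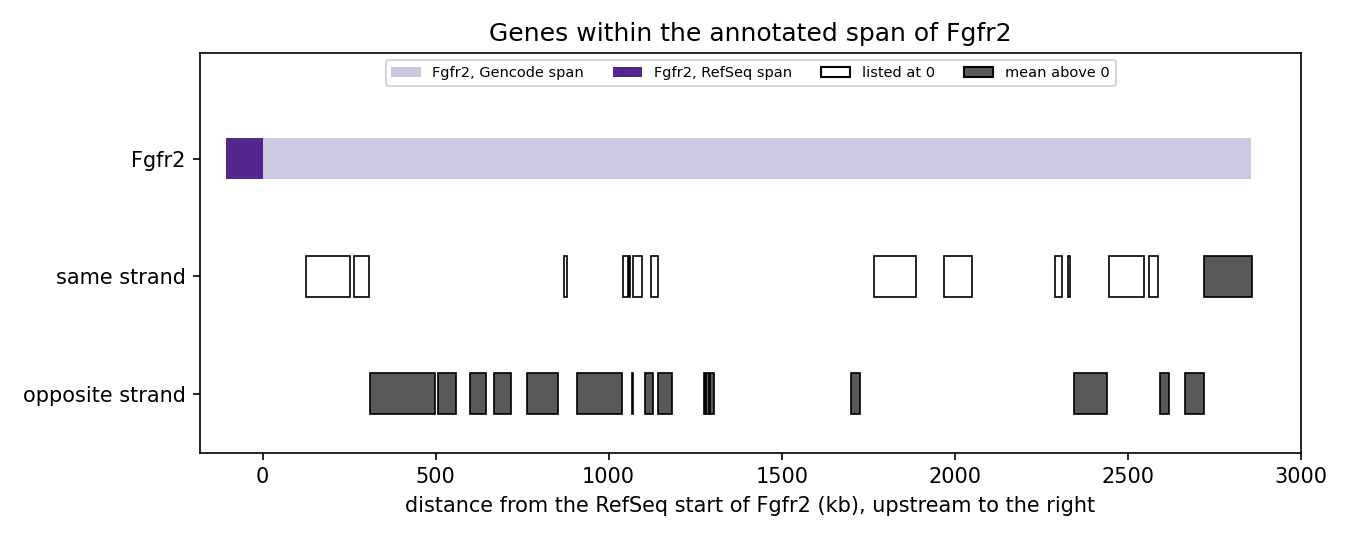
Genes within the annotated span of Fgfr2, by distance in kb from its RefSeq start, with the RefSeq part in dark purple and the rest of the Gencode span in light purple. Open boxes are genes listed at 0 and filled boxes are genes with a mean above 0. All 13 genes wholly inside on the same strand are open, and all 16 on the opposite strand are filled.

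The feedback inhibitor genes ranged from 17.6 per kb for Spry4 to 600.1 per kb for Spry2. Spry2 encodes a Sprouty protein that restrains signalling from receptor tyrosine kinases to ERK. It lies on chromosome 14 from 105891947 to 105896819 on the minus strand and had a mean of 2924 normalized counts over only 4.87 kb, or 600.1 per kb at percentile 97.8. Per kb of exon it was behind Etv5, Spred2 and Fgf4. Its paralog Spry4, on chromosome 18 from 38586247 to 38601415 on the minus strand, had a mean of 267 normalized counts, or 17.6 per kb at percentile 48.2. Spry2 was thus 34.1 times as high as Spry4 per kb of span and 24.9 times per kb of exon, with Spry1 between them at 74.1 per kb of span.

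Spred2 encodes a Sprouty-related protein that keeps RAS from activating RAF. It is on chromosome 11 from 19924375 to 20024026 on the plus strand, and its mean of 20699 normalized counts gives 208 per kb at percentile 87.5. Spred1 followed at 103 per kb and Spred3 at 31.6 per kb, and the order was the same per kb of exon. Il17rd, also known as Sef, encodes a membrane protein that dampens FGF signalling. Located on chromosome 14 from 27038941 to 27107286 on the plus strand, it had a mean of 10387 normalized counts, or 152 per kb at percentile 81.0. On the exon scale Spred2 was 4.74 times as high as Il17rd, whereas on the scale of gene span it was 1.37 times as high.

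Dusp6 encodes a cytoplasmic phosphatase that removes the activating phosphates from ERK. It is on chromosome 10 from 99263231 to 99267489 on the plus strand and had a mean of 361 normalized counts, or 84.8 per kb at percentile 68.2. Among 7 DUSP genes it was first per kb of span, next to Dusp7 at 76.6 per kb and above Dusp9 at 49.7, Dusp1 at 37.3, Dusp5 at 18.5, Dusp2 at 12.7 and Dusp4 at 6.29 per kb. Per kb of exon Dusp6, at 115, was the third of these, behind Dusp1 at 637 and Dusp7 at 162. The order thus depended on the length used. Without a length, Dusp1 was the highest of the 7, with a mean of 2108 normalized counts. Its Gencode span is many times its exon length, and RefSeq spans of the other DUSP genes were not compared here. The first place of Dusp6 was therefore shown for Gencode spans only. Spry2 had 7.07 times the Dusp6 level per kb of span.

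Etv4 and Etv5 encode closely related ETS transcription factors of the PEA3 family, whose genes are known to respond to FGF and ERK. Etv5, on chromosome 16 from 22381309 to 22439719 on the minus strand, had the highest mean of the 10 genes, 28865 normalized counts. Its level was 494 per kb, at percentile 97.0 by gene span and 99.5 by exons. Etv4, on chromosome 11 from 101769742 to 101785371 on the minus strand, had a mean of 305 normalized counts and 19.5 per kb, at percentile 49.1. Etv5 was 25.3 times as high as Etv4 per kb of span and 71.6 times per kb of exon. The remaining PEA3 gene, Etv1, lay between them at 60.1 per kb.

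In the order of levels per kb of gene span, Spry2 and Etv5 differed by 1.21 times, Etv5 and Fgf4 by 1.17 times, Spred2 and Fgfr1 by 1.12 times, Fgfr1 and Il17rd by 1.22 times, and Etv4 and Spry4 by 1.11 times. The wider steps were from Fgf4 to Spred2, by 2.04 times, from Il17rd to Dusp6, by 1.79 times, from Dusp6 to Etv4, by 4.35 times, and from Spry4 to Fgfr2 with its long span, by 5.77 times. Whether neighbours in this order differ beyond the spread between libraries was not tested, since the means carry none.

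The rest of the pathway was described by lists of genes with the same roles. All 11 adaptor and RAS genes were above the median gene, from 38.9 per kb for Sos2, a RAS exchange factor, to 469 per kb for Nras, with a median of 176 per kb. Of 9 kinase cascade genes, 8 were above it, and the scaffold gene Ksr2 was lowest at 8.95 per kb. Other feedback inhibitors had a median of 49.7 per kb, and the highest, Spred1 at 103 per kb, was below Spry2, Spred2 and Il17rd. Per kb of exon the highest of them was Nf1 at 1017, below Spry2 and Spred2 but above Il17rd at 946. The place of Dusp1 per kb of gene span rests on its long Gencode span, and its RefSeq span was not compared. Spry3 was not found in the gene table. Of 9 other ERK-responsive transcription factor genes, 8 were above the median gene, from 7.47 per kb for Fosl1 to 1538 per kb for the early response gene Ier2. Ligand genes other than Fgf4 and receptor genes other than Fgfr1 and Fgfr2 were the lowest of the lists, with 2 of 21 and 1 of 5 above the median gene.

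**Figure D3:**
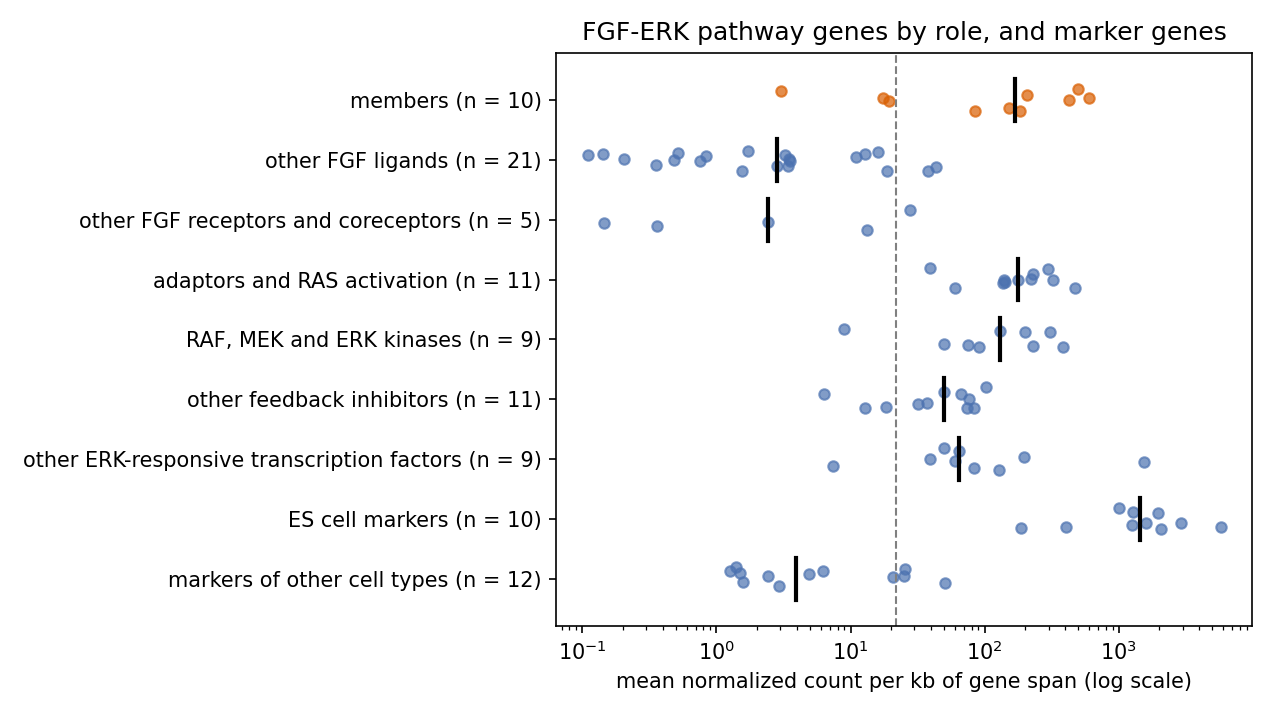
Mean normalized count per kb of gene span (log axis) for the 10 genes, in orange, and for the other pathway genes and marker genes, in blue, with 1 point per gene and a black bar at the median of each list. The dashed line is the median of all genes with reads, 21.7 per kb. Other FGF ligands, with a median of 2.85, lie mostly left of it, whereas all 11 adaptor and RAS genes lie right of it.

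PROMPTs are short-lived transcripts that run away from a promoter on the strand opposite to the gene, and they were counted within 1 kb upstream of annotated starts. Of the 10 genes, 8 had a PROMPT with a mean of at least 1 normalized count, beside 42.8% of the 18108 genes with a PROMPT row. The study applied the same limit to features in its pathway analysis. The 42.8% includes genes of every level, those listed at 0 among them. Of genes near the level of Etv5, 10.5% were under the limit. Fgf4 had 68.4, Il17rd 58.3 and Spry2 10.6 normalized counts. Spred2 followed with 9.07, Dusp6 with 7.07, Fgfr1 with 3.54, Etv4 with 2.76 and Spry4 with 1.99. Etv5 had 0.412, and Fgfr2 was listed at 0. Fgf4 and Il17rd were at percentiles 97.7 and 97.0 of the 23257 PROMPTs with reads, whose median was 0.815.

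Etv5 stood apart in that the gene was transcribed densely and its PROMPT was not. Of 1295 other genes with a PROMPT row and a level within 2 times that of Etv5, 136 (10.5%) had a PROMPT mean under 1, and the median PROMPT of these genes was 9.90 normalized counts. The 2 tables were normalized separately, so a ratio between them is a description. Per kb, the PROMPT of Etv5 had 0.0834% of the level of the gene, lower than all but 0.675% of the 13706 pairs in which both had reads. The same ratio was 38.3% for Il17rd, 16.1% for Fgf4, 14.2% for Etv4, 11.3% for Spry4 and 8.34% for Dusp6. It was 4.37% for Spred2, 1.91% for Fgfr1 and 1.76% for Spry2. With exon length the ratio was 6.16% for Il17rd, 6.13% for Dusp6, 3.55% for Spry4, 2.89% for Fgf4 and 2.81% for Etv4. By its RefSeq span, at 1963 per kb, Fgf4 would also have a lower ratio. By gene span, the median for the 9 genes with both values above 0 was 8.34%, near the 8.12% of all such pairs. On that scale 5 of the 9 genes were above 8.12%, Fgf4 among them.

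Whether a PROMPT window lay at the promoter in use depends on the gene start that was taken, and the table gives no coordinates. For 7 of the 10 genes the Gencode and RefSeq starts were within 1 kb of each other. They were 14.0 kb apart for Fgf4, 5.11 kb for Fgfr1 and 2.86 Mb for Fgfr2. If the windows were set from the Gencode gene start, the PROMPTs listed for these 3 genes were not read at the promoters that RefSeq gives, and the Fgf4 sequence above lies outside its window. For Etv5 the RefSeq gene start was 0.149 kb from that of Gencode, but the promoter table also holds an Etv5 start 1.35 kb from it, and a window set from the Gencode start would not cover the bases just upstream of that second start.

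**Figure D4:**
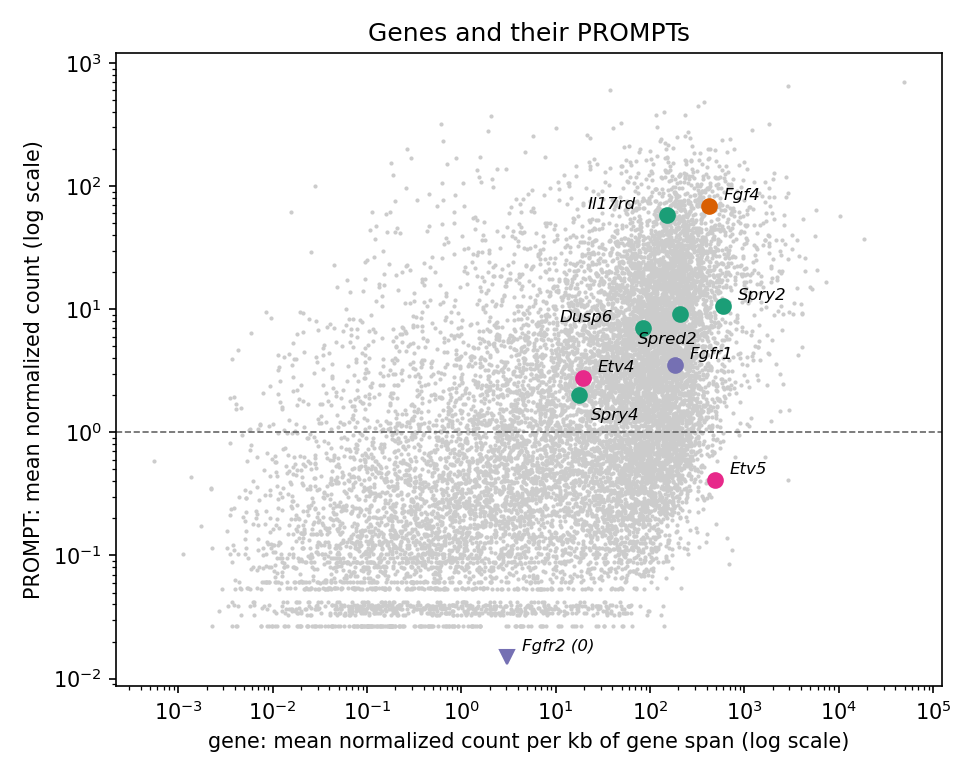
Mean normalized count of the PROMPT against the level of the gene per kb of gene span, both on log axes, with the 10 genes in colour by role and other genes with both values above 0 in grey. The dashed line is a PROMPT mean of 1, and the triangle marks Fgfr2, whose PROMPT was listed at 0 and is drawn at an arbitrary height below the lowest value. Etv5, at 494 per kb, is the only other of the 10 genes below the line.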

How the data were processed

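TT-seq libraries from 6 conditions, 3 per condition, were used, grouped by their titles. Per the study's methods, trimming was by Trim Galore, alignment to mm10 by STAR with unique hits kept, and stranded counting by featureCounts. The submitters' processing notes also name HTSeq. Genes and PROMPTs came from Gencode vM25. The deposited baseMean is a signal, a count scaled by DESeq2 size factors and averaged by the authors. Which libraries entered that average is not given in the sources used here. It keeps neither depth nor spread of single libraries, so no interval was computed. The remaining deposited columns hold the authors' own comparison of SPT16-depleted with control cells (fold change, standard error, p-value, adjusted p-value) and were not used. Tables of DHSs and eRNAs were not used, since their regions carry no coordinates.

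Gene spans and exon unions came from Gencode vM21 on GRCm38, which had 21817 of the 21859 genes, and RefSeq spans and promoters from GRCm38.p6. Exon length had been planned as the first choice. Gene span replaced it after genes inside other genes were found at 0. Percentiles count ties by equal parts. Alternatives were exon, RefSeq and unshared lengths, no length, minimum means of 1 and 10, and other PROMPT limits. The named genes were the 10 members, the highest and lowest gene of each list, paralogs of members and Fgf5, of which 1 is not reported here. Others in the Fgfr2 span, and Fgf10 and Klb, were named after their values were seen. Members and lists were chosen with earlier results of these data known. The functions were tested on simulated data. Scripts ran under Python 3.11.15 with pandas 2.3.3 and numpy 2.4.6, and plots were drawn by matplotlib 3.10.9. The pairs of genes set side by side and the motif letters were picked after values and sequences were seen.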

Additional observations from a re-analysis of the deposited data

How the results depend on the processing

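The median percentile of the 10 genes, 83.0 by gene span, was 84.1 by exon length, 90.1 without a length, 80.7 among genes with a mean of at least 1, 77.9 among those with at least 10, and 85.1 without Fgfr2. By unshared length it was 82.8 and by RefSeq span 83.1. The median level of 168 per kb became 1053 per kb of exon and 177 per kb of RefSeq span. Exon length raised the level of every one of the 10 genes, since it is shorter than the span, and it put Etv5 rather than Spry2 first. RefSeq spans put Fgf4 first. With a limit of 10 normalized counts, 3 genes had a transcribed PROMPT, and above 0 it was 9. The median ratio of PROMPT to gene, 6.35%, was 1.78% with exon length and 8.34% both without Fgf4, Fgfr1 and Fgfr2 and without Fgfr2 alone, whose PROMPT at 0 is counted in the 6.35%. Unshared length, RefSeq span and leaving out genes were chosen after seeing the data. No paired analysis was possible because the values used here are means over libraries and carry no replicate numbers, and for the same reason no replicate could be left out. Depth per library was not used here, so low PROMPT means such as that of Etv5 have no counting error.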
